A study of Mus musculus with 21 samples.

Results

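Genes of glycolysis and muscle fuel use were followed in a study of H3K36me3 in C2C12 cells, mouse myoblasts that fuse into myotubes when differentiated. The 10 genes, listed by name, were Pfkm, Pfkp, Aldoa, Pgam2, Eno1, Eno2, Eno3, Pkm, Pygm and Ckm, out of 19300 protein-coding genes of at least 2 kb whose bodies were measured. All 10 were found in the gene table. H3K36me3 was mapped by ChIP-seq, which sequences DNA bound by an antibody to the mark, and the value used throughout is cover, the percent of a gene body, from annotated start to end, that lies inside called peaks. Wild-type (WT) cells had 2 libraries in each of 5 conditions: day 0, and then either control or methionine-restricted medium, each sampled on days 1 and 5. Each of 2 lines labelled as knockouts (KO) of Setd2 had 1 library in each of the same conditions. The labels do not say whether a KO line is a clone, how the gene was disrupted, or whether replicate libraries came from separate cultures, so p-values measure only the spread between these libraries, which may be technical.

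Glycolysis turns glucose into pyruvate through a chain of enzymes, many of which exist as tissue isoforms encoded by separate genes. Developing muscle is known to switch towards the isoforms of adult fibres, among them the muscle phosphofructokinase, the muscle phosphoglycerate mutase and the beta enolase, and to build up glycogen phosphorylase and creatine kinase. H3K36me3 is laid down over the bodies of transcribed genes by SETD2, which travels with elongating RNA polymerase II, and it is usually densest towards the 3′ end of a gene. Methionine is the source of the methyl group used by this enzyme.

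The genes span a wide range of lengths, and some share bases with neighbours, which sets what their cover can mean. On GRCm38, the build given in the submitters' processing notes, Pfkm lies at chr15:98092589-98132447 on the plus strand and Pfkp at chr13:6579874-6649060 on the minus strand. Pfkp is the longest of the 10 at 69.2 kb, and 28.0% of its body overlaps Pitrm1 and Gm35730. Aldoa lies at chr7:126795234-126800994 on the minus strand, and because 5 pseudogenes or retrogenes are named after it, its cover is uncertain where reads could be split among near-identical copies. Pgam2, at chr11:5801637-5803796 on the minus strand, is the shortest at 2.16 kb. The enolases are Eno1 at chr4:150236708-150248879 on the plus strand, Eno2 at chr6:124760053-124769673 on the minus strand and Eno3 at chr11:70653125-70662513 on the plus strand. Eno3 shares 39.1% of its body with Pfn1, whereas Eno1 and Eno2 overlap no annotated gene. Pkm lies at chr9:59656576-59679372 on the plus strand, with 7.83% of its body inside LOC115487221. Pygm lies at chr19:6384408-6398464 on the plus strand and overlaps nothing, and Ckm lies at chr7:19411094-19421583 on the plus strand with 37.7% of its body inside A930016O22Rik.

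Promoter sequences are shown for Ckm, Pygm and Eno2, whose bodies went from little or no cover to high cover over 5 days, and for the most downstream annotated start of Pfkm, beyond which all WT cover of that gene lay. Each run is the 250 bases before the RefSeq start (GRCm38.p6), 5′ to 3′ on the gene's strand, and capitals mark the E-box letters CAGCTG, or CACCTG on either strand, that myogenic factors can bind. The windows are chr7:19410844-19411093 for Ckm, chr19:6384158-6384407 for Pygm, chr6:124769674-124769923 for Eno2 and chr15:98111810-98112059 for Pfkm.
Ckm: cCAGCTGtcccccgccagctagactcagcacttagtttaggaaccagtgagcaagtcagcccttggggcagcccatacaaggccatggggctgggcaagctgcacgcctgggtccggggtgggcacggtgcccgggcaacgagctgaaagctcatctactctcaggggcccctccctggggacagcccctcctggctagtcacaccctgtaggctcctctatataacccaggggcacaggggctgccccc
Pygm: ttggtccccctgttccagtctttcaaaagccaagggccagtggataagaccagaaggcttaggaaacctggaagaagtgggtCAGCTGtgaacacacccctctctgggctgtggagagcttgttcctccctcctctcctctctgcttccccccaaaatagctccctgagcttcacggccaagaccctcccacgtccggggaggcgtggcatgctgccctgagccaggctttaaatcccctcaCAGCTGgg
Eno2: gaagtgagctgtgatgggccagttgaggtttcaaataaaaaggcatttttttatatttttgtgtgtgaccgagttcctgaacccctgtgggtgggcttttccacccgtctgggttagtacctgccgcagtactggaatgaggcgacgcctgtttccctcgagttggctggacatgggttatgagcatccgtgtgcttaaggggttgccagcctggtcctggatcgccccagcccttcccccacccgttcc
Pfkm: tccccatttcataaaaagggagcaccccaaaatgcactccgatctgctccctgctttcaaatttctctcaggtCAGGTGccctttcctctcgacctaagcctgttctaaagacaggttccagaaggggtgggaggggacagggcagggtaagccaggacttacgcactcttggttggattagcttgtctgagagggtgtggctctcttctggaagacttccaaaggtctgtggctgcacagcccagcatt
Ckm held a CAGCTG starting 249 bases before its start, and Pygm held 2, at 168 and 8 bases before it. The Pfkm window held the letters of CACCTG on the opposite strand at 177 bases, and the Eno2 window held neither motif. Of the 18 annotated start windows of the 10 genes, 4 held CAGCTG and 6 held either motif, against 13.001% and 27.7% of all 32851 windows of this length in the table, in which CAGCTG and CACCTG were searched on both strands and do not overlap in letters. A match describes the letters alone. Hardly any peak reached these windows in WT: none overlapped that of Ckm, Eno2 or Pfkm, and a peak in 1 WT library, day 5 control replicate 1, overlapped that of Pygm.

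WT lists held 63423 to 87398 peaks over 110 to 183 Mb, and the KO lists stood apart from them and from each other. KO line 1 had 791 to 64530 peaks over 0.307 to 74.1 Mb, with its longest lists on day 5, and KO line 2 had 127 to 13880 peaks over 0.00821 to 7.13 Mb. A list carries no read number, so depth is unknown. The Setd2 gene was covered to between 45.6% and 82.8% in the 10 WT libraries, to at most 24.0% in KO line 1 and to 0% in all 5 libraries of KO line 2, although cover there reports the mark and not the enzyme or the deletion. The label of muscle lineage was met by its markers. Of 5 myoblast genes, 4 were at least 50% covered on day 0 in WT, and all 6 genes of differentiated muscle were so on day 5 in control medium, when their covers summed to between 551 and 556 points against 61.9 to 82.4 on day 0. Of 11 measured markers of adipocytes, neurons, blood, endothelium and liver, 9 had no peak in any WT library and the highest was Pparg at 4.46%.

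Over the differentiation course in control medium, the WT cells gained H3K36me3 cover on Pygm, Ckm, Eno2, Pfkm, Pgam2 and Pfkp. Eno3 and Aldoa did not pass the test, nor did Eno1 and Pkm, which, at 89.8% or more in all 6 day 0 and control-medium libraries, were so near the ceiling of the measure that a rise could hardly show there. Between day 0 and day 5, 6 of the 10 genes rose and 0 fell (limma, Benjamini-Hochberg adjusted p under 0.05), against 12.2% of 9512 genes tested that rose and 15.6% that fell. The median difference was 17.6 points for the 10 genes and -1.17 points for all genes tested. All 10 passed the filter on mean cover of 5% over the WT libraries, Eno2 and Ckm only through their day 5 control libraries, so the count of rising genes is not independent of that filter. A peak list cannot tell fewer cells carrying the mark from less mark per cell.

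Pygm, muscle glycogen phosphorylase, which releases glucose units from glycogen, was covered to 2.89% and 14.4% in the day 0 libraries and to 89.6% and 85.2% in those of day 5. Day 1 control libraries were near day 0, at 11.7% and 8.25%, so the whole gain lay after day 1. It amounted to 78.8 ± 4.26 points (SE) from day 0 to day 5 (limma adjusted p = 4.78e-06). Ckm, the muscle creatine kinase that buffers ATP, had no peak in the day 0 libraries, 3.53% and 0% on day 1 and 79.0% and 60.6% on day 5. Its gain was 69.8 ± 5.38 points, and the distance between its day 5 libraries was the widest of the 10 genes in that group. For Ckm and Eno2 the filter fixed the direction of any change into or out of the day 5 control group, so p-values for these changes are no support and the values stand as a description. On the bases of Ckm that lie in no other gene, the gain was 64.1 points.

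Eno2, usually called the neuronal enolase, made a gain of the same order. Its cover was 0% and 12.3% on day 0, 9.54% and 0% on day 1 and 87.5% and 81.4% on day 5, a difference of 78.3 ± 4.71 points between day 0 and day 5. Of 3 neuronal markers, 0 had a peak in any WT library of day 0 or of either day 5 group in WT, so the gain on Eno2 was not accompanied by a peak on these genes. Eno1, the ubiquitous alpha enolase, did not pass the test. It was covered to 90.5% and 91.2% on day 0 and to 90.5% and 91.9% on day 5. Eno3, the beta enolase of muscle fibres, did not pass either, at 56.1% and 61.1% on day 0, 60.3% and 59.3% on day 1 and 53.7% and 55% on day 5. Its difference from day 0 to day 5 was -4.21 ± 4.22 points (limma adjusted p = 0.522), and on the bases outside Pfn1 all 6 day 0 and control-medium libraries lay between 74.9% and 78.5%. In all 4 libraries of day 0 and of day 1 in control medium, 100% of the covered bases of Eno3 lay in peaks that ran on into Pfn1, Rnf167 or Spag7, as did 86.9% and 100% in those of day 5, so its cover is not separate from theirs. Of the 3 enolase genes only Eno2 passed the test over this interval. The filter had fixed the direction for Eno2 and Eno1 was near the ceiling, so this contrast between the genes is a description.

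The phosphofructokinases, which commit sugar to glycolysis, both rose. Pfkm, the muscle subunit, was covered to 17.1% and 23.1% on day 0, 25.6% and 30.2% on day 1 and 48.2% and 47.2% on day 5, a gain of 27.6 ± 3.73 points from day 0 (limma adjusted p = 0.000756). A peak that ran on into the neighbouring gene Asb8 held 0.557% and 28.6% of its covered bases on day 0 and 86.8% and 69.9% on day 5. Pfkp, the platelet subunit, went from 57.1% and 54.4% to 73.9% and 69.6%, a gain of 15.99 ± 3.83 points (limma adjusted p = 0.0147). The call on Pfkp was lost in 5 of 19 alternatives (adjusted p of 0.0587 to 0.198), among them cover on its own bases only (9.29 points), day 0 replicate 2 left out and day 5 control replicate 1 left out.

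Pgam2, the muscle phosphoglycerate mutase, rose from 2.45% and 10.1% to 23.7% and 27.4%, by 19.2 ± 4.12 points (limma adjusted p = 0.00890). All of its cover, in every library that had any, lay in peaks that ran on into the neighbouring gene Dbnl, and the covered stretch was at most 592 bases at the 3′ end. Without day 5 control replicate 2 its call was lost (adjusted p = 0.0646). Aldoa, aldolase A, and Pkm, pyruvate kinase of muscle and most other tissues, did not pass the test. Aldoa was covered to 53.4% and 80.8% on day 0, the widest pair of the 10 genes on that day, and to 69.4% and 67.7% on day 5. Pkm was at 97.1% and 97.6% on day 0 and at 97.5% and 95.3% on day 5, close to the ceiling, and 89.2% or more of its covered bases in these and the day 1 control libraries lay in peaks that ran on into Gramd2.

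Between day 0 and day 1 in control medium, 0 of the 10 genes passed the limma test in either direction, against 0.967% of genes that rose and 5.65% that fell. At an unadjusted p under 0.05 the count was also 0, the lowest p being 0.0683 for Pfkm. With lists of equal length Pfkp passed, its value moving from 1.26 to 27.5 points (limma adjusted p = 0.0105). From day 1 to day 5, 6 genes rose and 0 fell, against 17.1% and 5.95% of all genes tested. They were the same 6 genes, and this comparison shares its day 5 libraries with that from day 0. The filter fixed the direction for Eno2 and Ckm here too, so their calls, here and with a library left out, are no support. Without day 1 control replicate 1 only 3 were called, namely Eno2, Pygm and Ckm. Pfkp lost its call in 11 of 19 alternatives (adjusted p up to 0.313) and Pgam2 in 9 of 18 (up to 0.157), among them leaving out any of the 4 libraries compared. With each library centred on its median 4 of the 10 genes rose, while over all genes the calls went from 1628 higher and 566 lower to 991 and 1176. From day 0 to day 5 centring left 6 genes rising, with all genes going from 1157 higher and 1484 lower to 1614 and 1299.

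**Figure D1:**
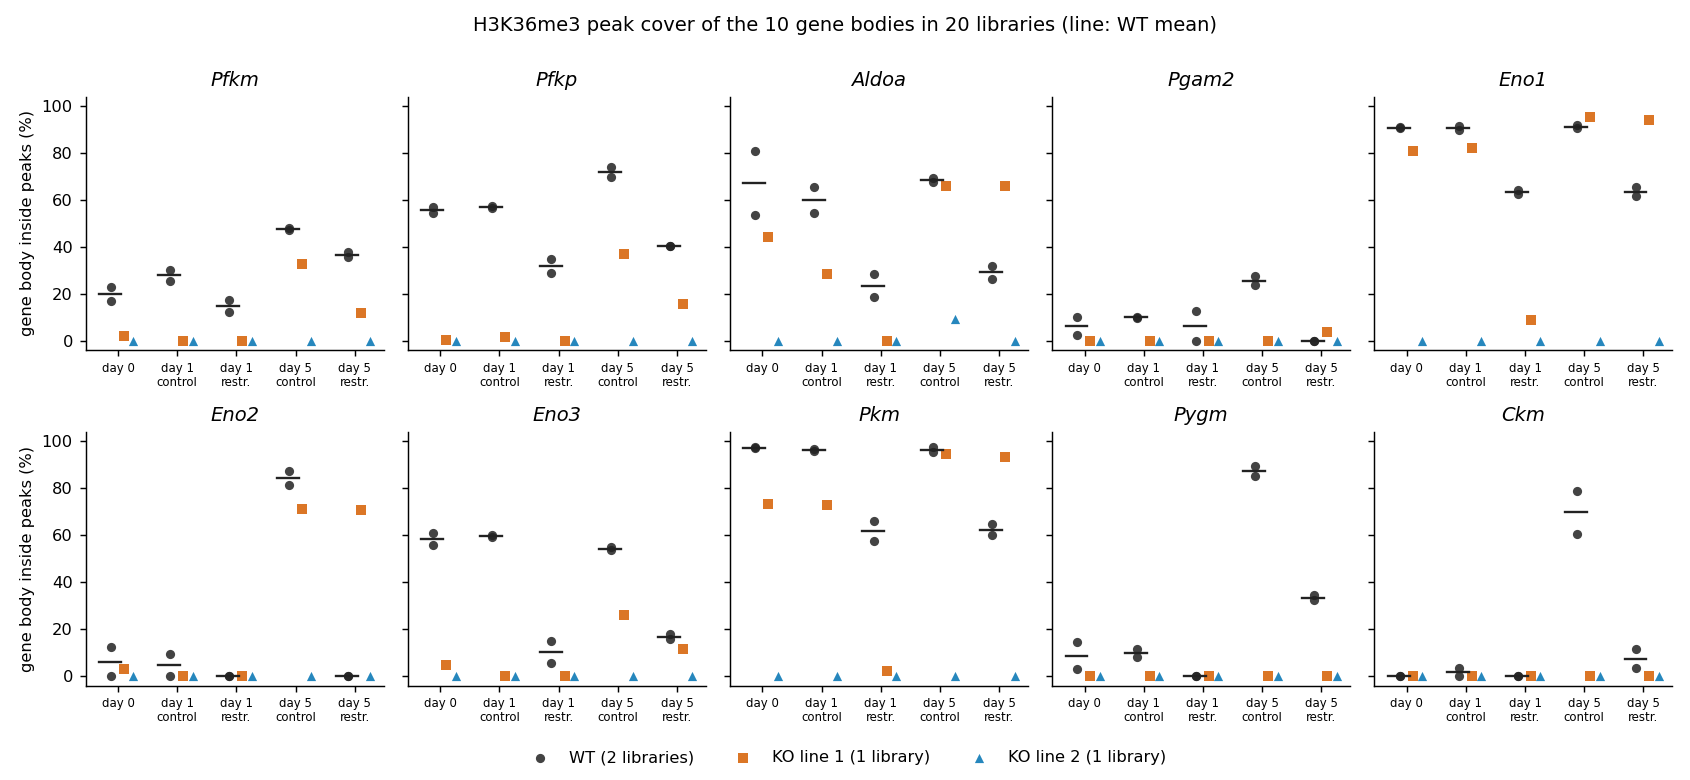
Cover (percent of the gene body inside peaks) of each gene, with 1 point per library, for WT (circles, line at the mean of 2 libraries), KO line 1 (squares) and KO line 2 (triangles) in 5 conditions. In WT, Eno2, Pygm and Ckm reach 60.6% or more only on day 5 in control medium, Eno1 and Pkm drop from 89.8% or more to between 57.6% and 66.3% under restriction, and KO line 2 is at 0% except for 9.29% on Aldoa.

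Under methionine restriction mean cover was lower on all 10 genes on both days. The test was passed by 6 of them on day 1 and by all 10 on day 5, counts that shrank when libraries were centred. On day 1 the genes that passed were those already covered in myoblasts: Eno1, Eno3, Pfkm, Pfkp, Pkm and Aldoa, 6 of the 10, against 36% of 9512 genes tested that fell and 2.38% that rose. On day 5 all 10 fell, against 41.5% that fell and 4.32% that rose. Eno2 and Ckm reached the filter on mean cover only through their day 5 control libraries, the group from which they fell, so they had to fall and this count is not independent of the filter. The median difference over the 10 genes was -18.96 points on day 1 and -35.7 points on day 5, against -7.99 and -9.15 points over all genes tested. The restricted lists were also shorter as a whole, covering 110 to 134 Mb against 140 to 183 Mb in the control lists of the same days.

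Eno3 lost the most on day 1. Its cover went from 60.3% and 59.3% in control medium to 14.95% and 5.61% under restriction, a difference of -49.5 ± 4.22 points (limma adjusted p = 9.16e-05), and on its bases outside Pfn1 the difference was -59.2 points. On day 5 it was at 15.7% and 18.1%, a difference of -37.5 ± 4.22 points (adjusted p = 0.000223). The groups did not overlap on either day, as was true of 70.5% of all genes on day 1 and of 79.3% on day 5. Eno1 kept more of its cover, with 62.4% and 64.1% on day 1 and 61.8% and 65.3% on day 5. Its restriction difference was -27.4 ± 2.37 points on day 1 (limma adjusted p = 9.80e-05) and -27.7 ± 2.37 points on day 5 (adjusted p = 5.97e-05). Restricted Eno1 thus retained 69.8% of its control cover on day 1 and 69.7% on day 5.

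Pkm behaved like Eno1 in size. Its restricted libraries were at 66.3% and 57.6% on day 1 and at 60.0% and 64.9% on day 5, with differences of -34.4 ± 3.16 and -34.0 ± 3.16 points (limma adjusted p = 0.000121 and 9.37e-05). Aldoa fell to 18.6% and 28.3% on day 1 and to 31.9% and 26.4% on day 5, from controls of 54.4% and 65.4% and of 69.4% and 67.7%. The differences were -36.4 ± 8.43 points (limma adjusted p = 0.0101) and -39.4 ± 8.43 points (adjusted p = 0.00590). The day 1 call on Aldoa was lost without day 1 control replicate 2 or without day 1 restricted replicate 1 (adjusted p of 0.0580 to 0.0838 over these and median centring).

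Both phosphofructokinases fell on each day. Pfkp fell to 34.96% and 29.0% on day 1 and to 40.4% and 40.6% on day 5, with differences of -25.02 ± 3.83 and -31.3 ± 3.83 points (limma adjusted p = 0.00140 and 0.000337). Pfkm fell least of the called genes, to 17.5% and 12.5% on day 1 and to 35.5% and 37.7% on day 5, with differences of -12.9 ± 3.73 and -11.1 ± 3.73 points (limma adjusted p = 0.0256 and 0.0394). Its call was lost in 6 of 19 alternatives on day 1 (adjusted p of 0.0515 to 0.676) and in 9 of 19 on day 5 (0.0530 to 0.303). Those on day 1 included leaving out either day 1 control library or day 1 restricted replicate 2, and those on day 5 included leaving out any of the 4 libraries of that day or either day 1 control library, and adding a replicate block. The share of control cover that remained was 53.8% for Pfkm and 56.1% for Pfkp on day 1, and 76.8% and 56.4% on day 5. Whether the 2 genes differ in their loss was not tested.

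On day 5 the genes that had newly gained cover were lower under restriction. The 6 genes of differentiated muscle had lower summed covers too, 255 and 278 points with 3 genes at 50% or more, against 551 to 556 points and 6 in control medium. Their losses were uneven, with Ttn averaging 93.5% against 96.8% and Neb 82.8% against 95.4%. The 5 myoblast genes also summed to less, 175 to 178 points against 329 to 341. Lower cover was thus not particular to the genes of differentiated muscle. Myog, the myogenin gene, had no peak in either restricted library, where control libraries had 91.7% and 93.4%. The part of these markers in the differences was not tested. Eno2, at 87.5% and 81.4% in control medium, had no peak in either restricted library, a difference of -84.5 ± 4.71 points. Ckm was at 11.4% and 3.65% under restriction against 79.0% and 60.6%, a difference of -62.3 ± 5.38 points. Pygm kept 34.4% and 32.3%, a difference of -54.1 ± 4.26 points (limma adjusted p = 4.22e-05). The share of control cover that remained on day 5 was thus 0% for Eno2, 10.8% for Ckm and 38.1% for Pygm. Pgam2 had no peak under restriction on day 5, so the Dbnl peak no longer reached into it, a difference of -25.5 ± 4.12 points (limma adjusted p = 0.00144).

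The loss on day 5 exceeded that on day 1 for 3 of the 10 genes, which had little cover to lose on day 1. Day 5 minus day 1, the restriction difference was -79.7 ± 6.66 points for Eno2, -60.5 ± 7.61 for Ckm and -44.1 ± 6.03 for Pygm (limma adjusted p = 0.00537 for Pygm), and 3.58% of all genes tested passed in this direction and 1.62% in the other. On day 1 their control cover was at most 11.7%, so the value largely repeats the day 5 difference. Eno2 and Ckm were tested only because their day 5 control libraries were high, so for them this contrast had to be negative. The call on Ckm was lost with peaks of −log10 q of at least 3 and with lists shortened to equal length (adjusted p of 0.106 and 0.203), and that on Pygm with peaks within 1 kb joined (adjusted p = 0.0513). None of the other 7 genes passed. Pgam2 had -21.9 ± 5.82 points (adjusted p = 0.0728, and 0.0271 without day 1 restricted replicate 2), Eno3 11.998 points and Pfkp -6.26 points, and the values of Eno1, Pkm, Pfkm and Aldoa were between -2.93 and 1.83 points.

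The counts move with the scaling. When the cover of each library was centred on its median over the genes tested, the median difference of all genes moved from -7.99 to 7.20 points on day 1 and from -9.15 to 7.53 on day 5. Relative to that shift, 4 of the 10 genes fell on day 1 and 7 on day 5, where of all 9512 genes 1246 were lower and 3518 higher on day 1 and 1395 lower and 3763 higher on day 5. Eno2, Pgam2, Ckm and Pygm turned to between 5.21 and 13.4 points on day 1, none of which passed, and Pfkm turned to 2.28 points on day 1 and 5.60 on day 5, neither of which passed the test. Those that still passed were Eno1, Eno3, Pfkp and Pkm on day 1, joined by Eno2, Pygm and Ckm on day 5. Eno2 and Ckm were tested only through the day 5 control libraries from which they fell. Their calls are thus no support, and the count of 7 is not independent of the filter.

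**Figure D2:**
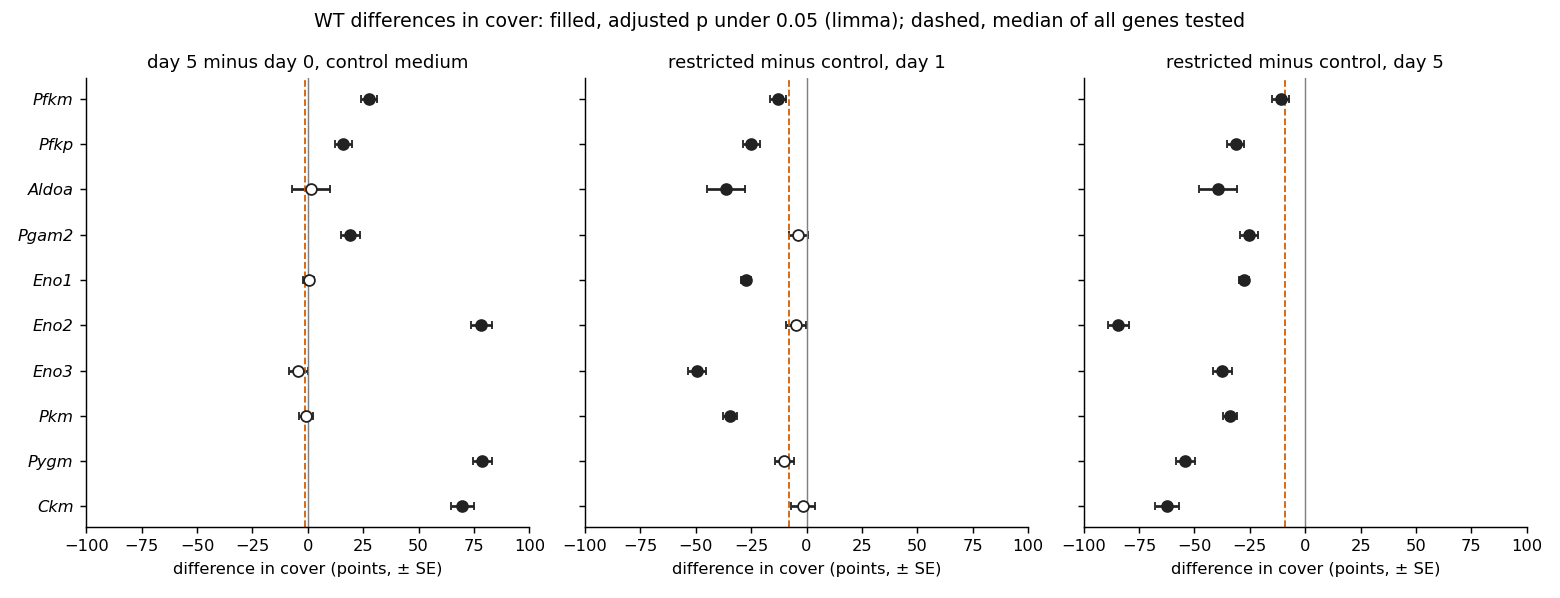
Differences in cover (percentage points, bars ± SE, filled where the limma adjusted p was under 0.05) in WT for day 5 minus day 0 in control medium and for restricted minus control medium on days 1 and 5, with the median of all 9512 genes tested dashed. Eno2, Pygm and Ckm gain 69.8 to 78.8 points by day 5, and all 10 genes lie below 0 under restriction on day 5, with Pfkm nearest to the median of -9.15 points.

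Peaks were not spread evenly along the genes. Gene bodies were split at their midpoint, and among the 84 combinations of gene and WT library that had any cover, the 3′ part was covered more than the 5′ part in 76. The 8 exceptions were 6 libraries of Pygm and 2 of Eno2. Where restriction removed cover also differed between genes, within the limits of what each part had to lose. In Eno1 the 5′ part fell from 81.2% ± 2.41 to 31.3% ± 1.31 on day 1 (SD, n = 2) and from 82.4% ± 1.99 to 35.2% ± 0.627 on day 5, while the 3′ part went from 100% in all control libraries to 95.2% ± 1.06 and 91.9% ± 4.39. Pkm had the same shape, with its 5′ part at 92.8% ± 3.03 in control medium and 28.5% ± 1.84 under restriction on day 5 (SD, n = 2) and its 3′ part at 100% and 96.4% ± 5.11. In Aldoa the 5′ part had no peak in any of the 4 restricted libraries, and the 3′ part went from 100% in all control libraries to 46.9% ± 13.8 on day 1 and 58.3% ± 7.83 on day 5.

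Pygm lost cover the other way round. On day 5 its 5′ part went from 85.5% ± 3.40 to 40.3% ± 2.87 and its 3′ part from 89.4% ± 2.88 to 26.3% ± 0.211 (SD, n = 2). Over all 10 genes the loss was larger in the 5′ part for 5 genes and larger in the 3′ part for 5 on day 1, and for 3 and 7 genes on day 5. In control medium the 5′ part of Pgam2 had no peak on either day, and that of Ckm had none on day 1. The 5′ part of Pfkm averaged 0.414% on day 1 and 1.53% on day 5, so a larger 5′ loss was hardly possible for these. The 3′ parts of Eno1 and Pkm were at 100% in control medium, where less mark need not show as less cover. These positions are a description, with no test.

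Annotated starts inside the gene bodies bounded some of this cover. Pfkm has 4 annotated starts, the last of them 19.5 kb from the 5′ edge, and none of the 10 WT libraries had any peak before it. The fifth of 10 bins, which holds this start, had cover in both day 5 control libraries and in 1 of the 2 day 1 control libraries, and in no day 0 or restricted library, where cover began further downstream. Downstream of that start Pfkm was covered to 33.4% and 45.2% on day 0 and to 94.3% and 92.3% on day 5 in control medium, with 69.5% and 73.8% under restriction. Its low cover over the whole body, 47.7% on average at its highest, therefore stands for a nearly filled downstream part. In Eno3 the annotated start lies 4.05 kb from the 5′ edge, and from there to the end cover was 80.3% and 82.5% on day 5 in control medium against 27.6% and 31.8% under restriction. Before it, where the body overlaps Pfn1, restricted libraries had no peak.

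**Figure D3:**
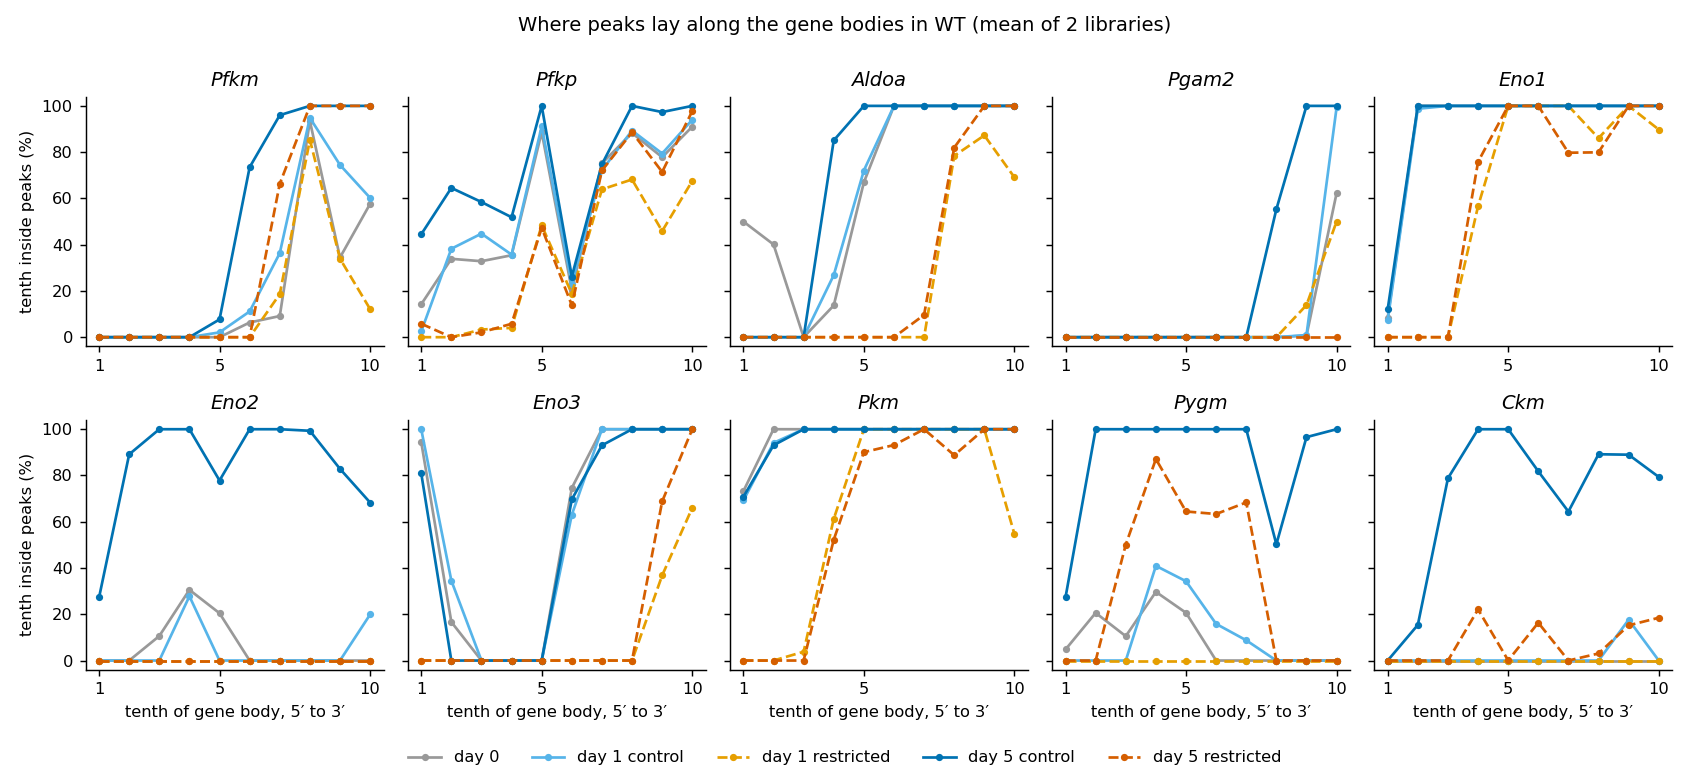
Share of each of 10 equal bins of the gene body that lay inside peaks, from the 5′ end (bin 1) to the 3′ end (bin 10), as the mean of 2 WT libraries per condition (solid, day 0 and control medium, and dashed, restriction). Restricted Eno1 and Pkm lose the first bins and keep the later ones, Pfkm is covered only in its downstream part, and Pgam2 only at its 3′ end.

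Against day 0, cells restricted up to day 5 had 2 of the 10 genes higher and 5 lower, where 4.05% of genes tested were higher and 43.5% lower. Pygm was 24.7 ± 4.26 points and Pfkm 16.5 ± 3.73 points above day 0 (limma adjusted p = 0.00183 and 0.00681). The 5 lower genes were Eno1, Eno3, Pfkp, Pkm and Aldoa, with differences of -41.7 to -15.3 points. Pfkp lost its call without either day 5 restricted library (adjusted p of 0.0550 and 0.0602), and Aldoa with centred libraries or with only the groups compared in the fit (0.0549 to 0.107). With lists of equal length the value for Pfkp turned to 8.43 points. With centred libraries 4 of the 10 genes were higher and 2 lower, when of all 9512 genes 4282 were higher and 1402 lower. Eno1 then moved to -8.24 points and lost its call (limma adjusted p = 0.0667). Ckm stood at 7.53% ± 5.48 (SD, n = 2) on restricted day 5 against no peak on day 0, a difference that did not pass in the main fit (limma adjusted p = 0.282). With centred libraries the difference on Ckm was 26.6 points and passed (limma adjusted p = 0.00210). The rise of Pygm lost its call with peaks of −log10 q of at least 3 and with lists of equal length (adjusted p of 0.195 and 0.528). These values share libraries with the comparisons above.

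The rest of the pathway gives the setting for the 10 genes. Of 21 other glycolysis genes, 20 were measured and 12 passed the filter on cover. From day 0 to day 5 in control medium 1 rose and 1 fell, against 12.2% and 15.6% of all genes tested: Hk2, the insulin-regulated muscle hexokinase, by 20.4 ± 3.80 points to 80.2%, and Aldoc, the brain aldolase, from 43.6% ± 3.30 (SD, n = 2) to no peak (limma adjusted p = 0.00439 and 0.00299). Under restriction 8 of the 12 fell on day 1 and 8 on day 5, with none higher, where 36% and 41.5% of all genes tested fell. On day 5 the largest losses were on Tpi1, triosephosphate isomerase, at 84.6% ± 5.17 against 8.54% ± 12.1 (SD, n = 2), and on Gapdh, at 76.3% ± 3.03 against 4.65% ± 6.57 (limma adjusted p = 7.50e-05 and 1.75e-05). Hk2 followed with 80.2% ± 2.11 against 34.9% ± 2.39. On day 1 Gapdh, Tpi1 and Pgk1, phosphoglycerate kinase, had differences of -73.1, -72.4 and -47.8 points. The median difference of the list was -14.3 points on day 1 and -18.2 on day 5. With centred libraries 4 of the 12 fell and 1 rose on day 1, and 5 fell and 2 rose on day 5, when of all 9512 genes 1246 fell and 3518 rose on day 1 and 1395 fell and 3763 rose on day 5. Gapdh has many processed copies in the mouse genome, so its cover carries the same uncertainty as that of Aldoa.

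Several glycogen genes rose over the course, as Pygm did. Of 11 tested among 17, 6 rose from day 0 to day 5 and 1 fell, against 12.2% and 15.6% of all genes tested, with a median of 15.2 points. The largest gains were on Pgm1, which interconverts glucose phosphates, at 25.7% ± 1.48 against 84.9% ± 5.17 (SD, n = 2), on Gyg, glycogenin, the primer of glycogen synthesis, by 35.4 points, and on Phkb, the phosphorylase kinase subunit, by 29.5 points (limma adjusted p = 1.17e-05, 0.00101 and 1.81e-05). The gene that fell was Pygb, the brain isoform of glycogen phosphorylase, from 74.3% ± 2.08 to 28.7% ± 0.632 (SD, n = 2), a difference of -45.6 ± 3.85 points (limma adjusted p = 5.01e-05). So while Pygm went from low to high, its brain paralogue went from high to low. Under restriction on day 5, 5 of the 11 fell and 1 rose, against 41.5% and 4.32% of all genes (with centred libraries 3 and 3), the latter being Phka1, a kinase subunit, by 8.17 ± 2.07 points (limma adjusted p = 0.0123). Pgm1, Gyg and Phkb were also among the genes whose restriction effect differed between the days, with values of -38.1, -40.1 and -18.2 points for day 5 minus day 1 (limma adjusted p = 0.00570, 0.0145 and 0.0104).

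Transport and creatine genes gave smaller lists. All 3 tested transporters fell under restriction on day 5, led by Slc2a1, the basal glucose transporter, at 91.5% ± 0.554 against 36.9% ± 2.68 (SD, n = 2), and Slc16a3, the lactate exporter, with a difference of -51.5 points (limma adjusted p = 3.18e-05 and 0.000185). With centred libraries 2 of the 3 fell, and Slc16a1, a lactate transporter, turned to 4.33 points (adjusted p = 0.329). Slc2a4, the insulin-regulated transporter of muscle, had no peak in any WT library. Slc16a3 had risen by 29.3 points from day 0 to day 5 (limma adjusted p = 0.00489). Of 4 regulators of phosphofructokinase tested, Pfkfb3 rose by 22.1 points and Tigar fell by 18.99 points from day 0 to day 5 (limma adjusted p = 0.000186 and 0.00848). Of 5 phosphagen and adenylate genes tested, 4 fell under restriction on each day (2 on each day with centred libraries), where 36% of all genes fell on day 1 and 41.5% on day 5. Ckb, the brain creatine kinase, was covered to 67.8% ± 5.88 on day 0 and 65.0% ± 0.616 on day 5 (SD, n = 2), a difference that did not pass the test, and it fell to 12.4% ± 17.5 under restriction (limma adjusted p = 0.000627).

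When all 5 conditions were averaged, cover was lower in the KO lines than in WT on all 10 genes, and 9 passed the test. Of 8859 genes tested, 97.9% passed in this direction and 0.0339% the other way, so the count is near the background. Over the KO libraries Ckm and Pygm averaged 0%, Pgam2 0.370%, Eno3 4.24% and Pfkm 4.68%, all under the filter of 5%. They were tested only through their WT cover and could only come out higher in WT, so the count is not independent of the filter. With each library centred on its median, 0 were lower in the KO lines and 6 higher, and over all genes 2699 were lower and 3948 higher, so the direction for the 10 genes rests on the scaling. Eno2 was the gene that did not pass, with WT higher by 4.58 ± 9.20 points (limma adjusted p = 0.630). The largest difference was on Pkm, by 49.2 points, which averages lines that were far apart: it was 15.6 points with KO line 1 alone and 82.9 with KO line 2 alone, and line 1 was above line 2 in all 5 conditions. The fit takes the 5 libraries of a line as independent, so its p-values and the count of 9 take no account of what the libraries of a line share. With the WT libraries of replicate 1 left out 4 genes were called, and with those of replicate 2 left out 5, in fits where the lone WT library of a condition is assumed to vary like the KO pairs. 

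KO line 2 had no peak on 9 of the 10 genes in any of its libraries, and on Aldoa a peak only on day 5 in control medium, over 9.29% of the body. KO line 1 kept cover on Eno1 and Pkm. On day 0 it had 80.8% on Eno1, 73.1% on Pkm and 44.4% on Aldoa, while each of the other 7 genes had 4.69% or less. Day 1 in control medium was alike, with 82.2%, 73.1% and 28.5%. Only 0.181% of all genes were covered to 75% or more in KO line 1 on day 0, and Eno1 was among them. On day 1 under restriction, in the list of 791 peaks, Eno1 had 8.82% and Pkm 2.16%, and the other 8 genes had none. With 1 library per line and condition, none of these values within a line has a test.

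On day 5 KO line 1 had cover on more of the genes. In control medium it had 95.4% on Eno1, 94.8% on Pkm, 71.1% on Eno2 and 66.1% on Aldoa, and lower values on Pfkp (36.9%), Pfkm (32.7%) and Eno3 (25.99%). Pgam2, Pygm and Ckm had no peak. Of the 6 genes that rose in WT by day 5, Eno2, Pfkp and Pfkm were thus covered in this line, and Pgam2, Pygm and Ckm had no peak, of which Pgam2 owed its WT cover to peaks running on into Dbnl. Of the differentiation markers, 4 of 6 genes of differentiated muscle had a peak in KO line 1 on day 5 in control medium and 2 were covered to 50% or more, against 6 of 6 in WT, with summed covers of 209 points in this line and 551 to 556 in WT. The part of this difference in the values above was not tested.

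Under restriction on day 5 KO line 1 was above WT on 5 of the 10 genes. Eno1 was at 94.2% against 61.8% and 65.3% in the WT libraries, Pkm at 93.4% against 60.0% and 64.9%, Aldoa at 66.0% against 31.9% and 26.4%, and Eno2 at 70.8% against no peak in either. Pgam2, the fifth, had 3.70% against none. In the same library the genes of differentiated muscle summed to 141 points against 255 and 278 in WT. Of the 3 neuronal markers Syt1 had 7.37% and the others no peak, against none on all 3 in WT, and Pparg, of the adipocyte markers, had 5.13%. The part of these markers in the values above was not tested. Being above both WT libraries was seen for 19% of 11354 genes with cover in this condition, and for 4 of the 10 genes the distance to the WT mean was at least 25 points, as for 3.51% of genes. In control medium on day 5 only Eno1 was above both WT libraries (13.4% of genes), and at the 3 other conditions 0 of the genes were (4.38% of genes on day 0, 4.43% on day 1 in control medium and 0.503% under restriction). These counts depend on list length. When WT lists were shortened to the length of the KO line 1 list, 3 genes were above WT on day 0, 1 on day 1 in control medium, 2 under restriction on day 1 and 2 on day 5 in control medium, with 66.8%, 64.6%, 85.9% and 44.0% of all genes. In that setting 7 genes were above WT on restricted day 5, with 52.1% of all genes, and 4 were at least 25 points above, with 10.9% of all genes.

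Within KO line 1 the difference between the media was set by 1 library of each, and it was large on day 1, when Eno1 went from 82.2% to 8.82%, Pkm from 73.1% to 2.16% and Aldoa from 28.5% to no peak. From control to restricted medium on day 5 the difference was -1.20 points for Eno1, -0.343 for Eno2, -1.39 for Pkm and -0.0521 for Aldoa. Eno1 and Pkm were at 93.4% or more in both of these lists, close to the ceiling of the measure. Among the 1621 genes with at least 50% cover in the control list of this line, the median difference was -30.0 points and the quartiles -44.7 and -12.3, and 11.9% lay within 5 points of 0. Pfkm, Pfkp and Eno3 had differences of -20.7, -21.4 and -14.2 points. The list as a whole shortened from 74.1 to 45.8 Mb. In the same library other glycolysis genes were also high: 7 of 11 with cover were above both WT libraries, and 5 were at least 25 points above the WT mean, against 19% and 3.51% of all genes with cover. Those 5, named after their values were seen, were Hk2, Tpi1, Gapdh, Pgk1 and Pgam1, with Gapdh at 80.3% against 0% and 9.29% in WT and Tpi1 at 79.3% against 0% and 17.1%. Of the glycogen genes 3 of 12 were above WT, a share near that of all genes.

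In KO line 1 the 3′ part was covered more than the 5′ part in 21 of the 28 combinations of gene and library with any cover, among them all 5 of Eno1. On Eno1 and Eno2 some peaks of this line sat where WT had none. On day 5, in both media, the peak on Eno2 ran on through the start of the gene into the 250 bases before it. The 250 bases before the first annotated start of Eno1 were overlapped by a peak apart from the one on the gene body, and the first 0.489 kb of the body held no peak. Both windows held no peak in any of the 10 WT libraries. The first of 10 bins of Eno1 was covered to 53.9% and 57.9% in KO line 1 on day 5, in control and restricted medium, against 5.09% and 19.1% in the WT control libraries and 0% in the restricted ones. Eno2 was covered more in its 5′ part, 89.5% against 52.7% in the 3′ part in control medium, the reverse of WT at 78.9% and 90.1%. Of the covered bases of Eno2 in KO line 1 62.3% in control medium and 61.9% under restriction lay in a peak that ran on into Lrrc23, which was not so in WT. By the authors' fold enrichment, the strongest peak on Eno1 had a fold of 13.8 and stood above 99.9985% of the peaks of its list in KO line 1 on day 5 in control medium. It is a value within that list and gives no comparison between lists.

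**Figure D4:**
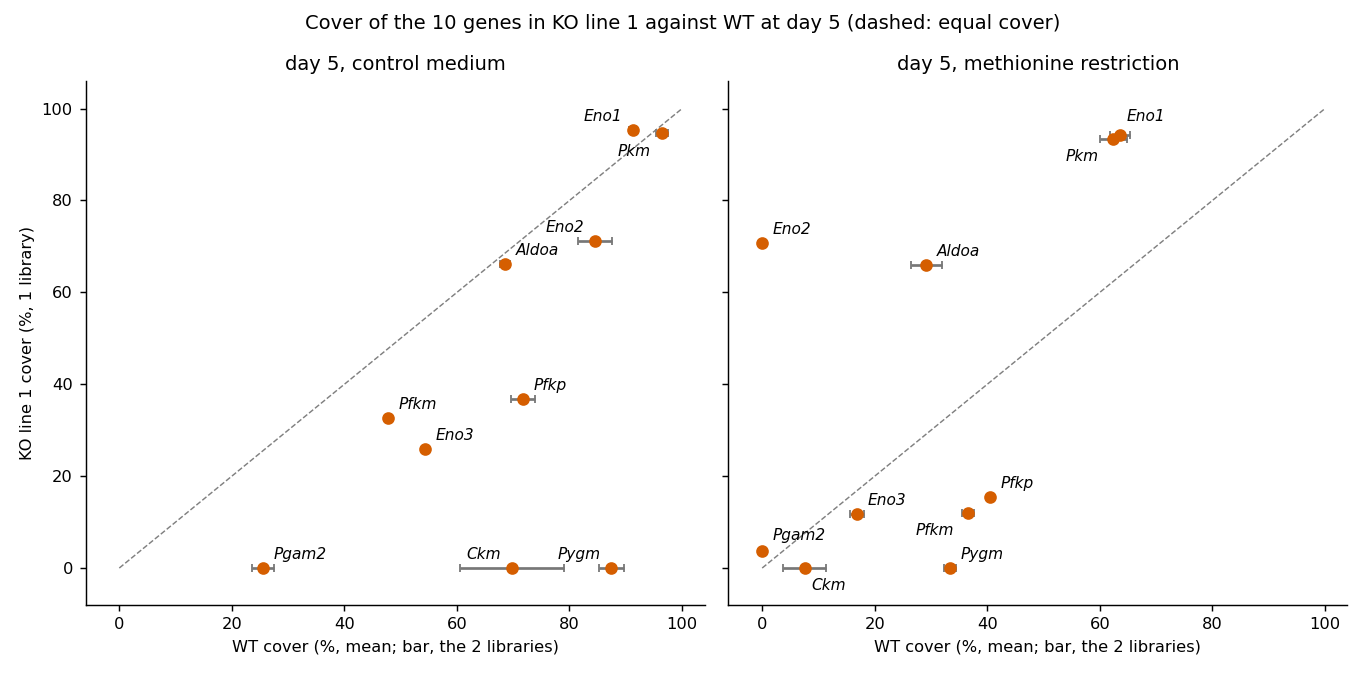
Cover of the 10 genes in KO line 1 (1 library, vertical axis, percent) against WT (mean of 2 libraries, horizontal axis, percent, bars spanning both libraries) on day 5 in control and in restricted medium, with equal cover dashed. Eno1, Pkm, Aldoa and Eno2 stand at 66.0% or more in KO line 1 in both panels, while their WT means move down to between 0% and 63.5% under restriction.

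Across the 10 WT libraries Eno1, Eno3 and Pkm ran together, with Pearson correlations of 0.982 to 0.990 between each pair, and Eno2, Pygm and Ckm did so with 0.927 to 0.976, whereas Eno1 and Ckm had 0.363. The 10 genes did not split into separate sets, since Pfkp had 0.885 with Eno1 and 0.767 with Eno2, and Pgam2 had 0.571 with Eno1 and 0.880 with Eno2. The libraries share their medium and day, so these correlations describe the course and carry no test. The genes most like 5 of them in cover over the 10 libraries, by the same correlation among 9512 genes and excluding those that overlap the member itself, were Zyx for Eno1 (0.998), Kank2 for Pkm (0.999), Nckap5l for Eno3 (0.996), Htra3 for Eno2 (0.992) and Mpp3 for Ckm (0.998).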

How the data were processed

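H3K36me3 ChIP-seq of C2C12 cells was taken as 20 deposited peak lists, called by the authors separately for each library, with no header. The build, GRCm38, is per the submitters' processing notes, and the aligner, peak caller and control are not given in the sources used here. Per the labels' protocols, Drosophila chromatin was added as a spike-in, and whether it scaled the peaks is not given in the sources used here. The authors' deposited values per peak are a fold enrichment (a ratio), a −log10 p-value and a −log10 q-value, and they served here for ranking and filtering inside 1 list at a time. Peak names inside the KO lists call the lines replicates 1 and 2 of a KO group, and the labels, which give 2 lines, were followed. The input library was not used here.

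Peaks that touched were merged, and cover was computed on RefSeq gene bodies (GRCm38.p6). limma 3.58.1 in R 4.3.3 (lmFit, eBayes with trend and robust) was fitted to cover in the 10 WT libraries as 5 groups, for 9512 genes whose mean cover reached 5%, and in 20 libraries for WT against KO (8859 genes), with Benjamini-Hochberg adjustment over all genes tested. A gene is called at an adjusted p under 0.05. Strand came from the RefSeq promoter table. Interval arithmetic and the limma step were tested on simulated data. Depth is unknown, so no counting interval is given. The members and lists were chosen with earlier results of these data known. Named genes are the 10 members, at most 3 called genes of each other list with the largest difference in each direction, and the genes of most similar cover, of which 1 is not reported here. Alternatives covered peak and cover thresholds, list length, joined peaks, centring, blocks and left-out libraries.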

Additional observations from a re-analysis of the deposited data

Results flagged for a closer look

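For 3 genes the effect of restriction on day 5 minus that on day 1 passed the test of the difference itself (limma, adjusted over all genes tested). Of all genes tested, 3.58% passed with a negative value and 1.62% with a positive one. The difference was -79.7 ± 6.66 points of cover (SE) for Eno2, -60.5 ± 7.61 for Ckm and -44.1 ± 6.03 for Pygm (limma adjusted p = 0.00537 for Pygm). On day 1 in control medium the 3 genes averaged only 4.77%, 1.76% and 9.98% in that order, so restriction had little cover to remove on that day and the difference between days largely repeats the day 5 value. Eno2 and Ckm passed the filter on mean cover only through their day 5 control libraries. For them the contrast had to be negative, so their p-values are no support and their values stand as a description. The call on Ckm was lost with peaks of −log10 q of at least 3 and with lists of equal length (adjusted p of 0.106 and 0.203), and that on Pygm with peaks within 1 kb joined (adjusted p = 0.0513).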

How the results depend on the processing

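Of 1410 values for the 10 genes under alternatives, 1268 kept their direction and side of the threshold, 66 lost their call, 7 gained one and 69 turned sign. The count of genes called was 1, Pfkp at 27.5 points, for day 0 to day 1 with lists of equal length. With a mean cover of at least 20%, for which 7 genes were tested, it was 1 for the day 5 minus day 1 effect, 3 for day 0 to day 5 and 3 for day 1 to day 5, and for WT minus KO 5 of 5 tested. For comparison, the main fits called 36% and 41.5% of all genes tested lower under restriction on days 1 and 5. They called 12.2% and 17.1% higher for day 0 to day 5 and day 1 to day 5, and 97.9% higher for WT minus KO. The shares of all genes with that cover or with a library left out are not given here. These counts therefore tell how calls moved and not how they stand against all genes. Leaving out 1 library gave 4 to 7 calls for restriction on day 1, 9 to 10 on day 5, 3 to 4 for the day 5 minus day 1 effect, 0 to 0 for day 0 to day 1, 5 to 6 for day 0 to day 5, 3 to 6 for day 1 to day 5, 6 to 7 for day 0 to restricted day 5 and 4 to 5 for WT minus KO. With peaks of −log10 q of at least 3 the sign turned for the day 5 minus day 1 effect Eno3 -2.08, Pfkm -0.61, for day 0 to day 1 Pfkp -7.95, Aldoa 1.82 (points). With lists of equal length the sign turned for the day 5 minus day 1 effect Pfkm -4.80, Pkm -0.362, for day 0 to day 1 Aldoa 1.82, for day 0 to restricted day 5 Pfkp 8.43 (points). With peaks within 1 kb joined the sign turned for the day 5 minus day 1 effect Eno1 2.33, for day 0 to day 1 Pygm -1.47 (points). With each library centred on its median the sign turned for restriction on day 1 Eno2 10.4, Pfkm 2.28, Pgam2 11.6, Ckm 13.4, Pygm 5.21, for restriction on day 5 Pfkm 5.60, for the day 5 minus day 1 effect Eno1 1.19, for day 0 to day 1 Eno1 8.24, Eno2 7.09, Pkm 7.49, Aldoa 1.29, for day 0 to day 5 Pkm 1.44, for day 1 to day 5 Eno1 -5.49, Pkm -6.05, for day 0 to restricted day 5 Eno2 12.9, Pfkp 3.76, Pgam2 12.8, for WT minus KO Eno1 -2.43, Eno2 -41.6, Eno3 -10.5, Pfkm -21.4, Pfkp -0.23, Pgam2 -36.9, Aldoa -18.0, Ckm -30.4, Pygm -18.3 (points). On bases in no other gene, an alternative chosen after seeing the data, the sign turned for the day 5 minus day 1 effect Pfkp 2.94, for day 0 to day 1 Eno3 -1.90 (points). With KO line 1 alone the sign turned for WT minus KO Eno2 -9.92 (points). Leaving out 1 library at a time turned the sign of these values, whose ranges in points were for day 0 to day 1 Eno3 -1.32 to 3.69, Pgam2 -0.116 to 7.57, Pygm -4.38 to 7.09, Eno1 -1.09 to 0.608, Eno2 -7.56 to 4.77, Pfkp -0.0831 to 2.61, Aldoa -20.9 to 6.501. They were for day 0 to day 5 Aldoa -12.3 to 15.1, Eno1 -0.337 to 1.07, Pkm -2.01 to 0.132. They were for the day 5 minus day 1 effect Aldoa -8.41 to 2.54, Eno1 -2.08 to 1.47, Pfkm -0.715 to 4.37, Pkm -3.93 to 4.74. They were for day 1 to day 5 Pkm -1.02 to 1.12, Eno1 -0.242 to 1.46. They were for restriction on day 1 Pgam2 -10.0 to 2.75. Same-numbered libraries did not deviate together (correlations of -0.439 to 0.0616), so numbers were not taken as pairs. With a replicate block 9 genes were called for restriction on day 5, Pfkm being lost, and the other WT counts did not change. With numbers crossed at day 1 in control medium 0 were called for day 0 to day 1. No paired analysis was possible for WT minus KO because the KO lines carry only number 1. Centring turned the split of all genes from 226 higher and 3422 lower to 3518 and 1246 for restriction on day 1, and from 411 and 3944 to 3763 and 1395 on day 5. For day 0 to day 1 it went from 92 and 537 to 225 and 108. With lists of equal length these splits were 845 and 1978, 1425 and 2073, and 120 and 119. They were then 632 and 881 for day 1 to day 5, 1152 and 2251 for day 0 to restricted day 5, and 344 and 273 for the day 5 minus day 1 effect, from 154 and 341. Where a sign or call changed, the cause was not tested. Lists of equal length were not run for WT minus KO, and depth is unknown.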
